A study of Mus musculus with 6 samples.

Results

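The 10 genes described here are regulators and markers of the epithelial-mesenchymal transition (EMT), chosen by name from the 55809 genes of the deposited count table. They comprise the EMT transcription factors Snai1, Snai2, Twist1, Zeb1 and Zeb2, the epithelial transcription factors Ovol1 and Grhl2, the cadherins Cdh1 and Cdh2, and the intermediate filament gene Vim. All 10 were in the table and all 10 passed the filter on low counts, which left 15733 genes. The cells were HC11, an established line of mouse mammary epithelial cells that the study used as a luminal line. Ctrl cells (3 libraries) were kept in medium without BMP7, and BMP7 cells (3 libraries) in medium with the BMP7 protein, a secreted ligand of the bone morphogenetic protein family. The comparison asks which genes respond to BMP7 in these cells. The study's methods describe starved HC11 cells stimulated with BMP7 for a short or a longer time without saying which of these was used for RNA sequencing. The labels do not say whether the libraries of a group came from separate cultures, so p-values measure the spread between these libraries, which may be technical.

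In EMT, epithelial cells lose their junctions and polarity and take up features of mesenchymal cells. The Snail (Snai), Zeb and Twist proteins are transcription factors that drive this programme, and the Snail and Zeb proteins repress Cdh1 and other epithelial genes through short DNA motifs called E-boxes. The Ovol and Grhl proteins act in the opposite sense, since they hold cells in the epithelial state and oppose Zeb genes. In the mammary gland, Snai2 is known as a factor of basal and progenitor cells, and Cdh1, which encodes E-cadherin, holds the luminal epithelium together.

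Library totals lay between 14607938 and 23748970 counts, and each pair of libraries of a group differed by more than sampling noise (chi-square per degree of freedom of 5.37 to 13.1). Id1, a direct BMP target, read 7.61, 8.21 and 7.87 CPM (counts scaled to a common library size) in Ctrl libraries 1, 2 and 3 and 162, 158 and 142 CPM in BMP7 libraries 1, 3 and 4, so the labels and the ligand's target went together. Libraries carry the numbers of their columns. The epithelial markers of the cells were mixed. Krt14 and Krt5, keratins of basal cells, read between 2423 and 5258 CPM, but the basal markers Acta2 and Myh11 were at or under 0.881 CPM in every library. The luminal keratins Krt8 and Krt18 read between 27.1 and 68.9 CPM, and luminal Krt19 was at or under 0.356 CPM in every library. BMP7 libraries 3 and 4 stood apart in markers of other cells, whose part in the results was not tested. The summed level of 10 adipocyte genes was 87.1 and 77.7 CPM there, against 26.1 CPM in BMP7 library 1 and 14.3 to 23.4 CPM in Ctrl, and the sum of 14 macrophage genes was 29.9 and 29.7 CPM, against 56.5 to 61.8 CPM in the other 4 libraries. All 7 tested adipocyte genes of the list were called higher (5.99% of all genes tested) and 4 of 10 tested macrophage genes lower (5.38%). In BMP7 library 1, Adipoq, Cfd and Car3 lay within the Ctrl range, and Fabp4, Plin1, Lpl and Cidec lay above it. Of 6 endothelial markers, Pecam1 rose from 13.0 to 15.8 CPM in Ctrl to 23.7 to 25.7 CPM in BMP7, and the other 5, Cdh5 and Kdr among them, were at or under 0.356 CPM in every library. Values without both BMP7 libraries 3 and 4 are given wherever that changed the call of a named gene among the 10 or the related lists below. They are not given for marker genes outside these.

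With BMP7, 3 of the 10 genes rose, 2 fell and 5 did not pass the test. Snai1, Snai2 and Ovol1 rose by 2.55-fold, 1.62-fold and 2.79-fold, while Grhl2 and Cdh1 fell to 0.819 and 0.832 of their Ctrl level. Twist1, Zeb1 and Zeb2 had log2 fold changes within 0.10 of 0, and Cdh2 and Vim lay between. The rises were thus split over an EMT pair and an epithelial factor, and the falls were small. Calls required that the adjusted p was under 0.05 with a fold change over 1.2, which 5.99% of all tested genes passed upwards and 5.38% downwards. All BMP7 libraries exceeded all Ctrl libraries for 4 of the 10 genes (14.8% of all tested genes) and lay below them for 2 (15.1%). With 3 libraries against 3, the smallest two-sided p of an exact permutation test is 0.1, which each of these 6 genes reached. In bulk RNA, fewer cells expressing a gene and less RNA per cell cannot be told apart.

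**Figure D1:**
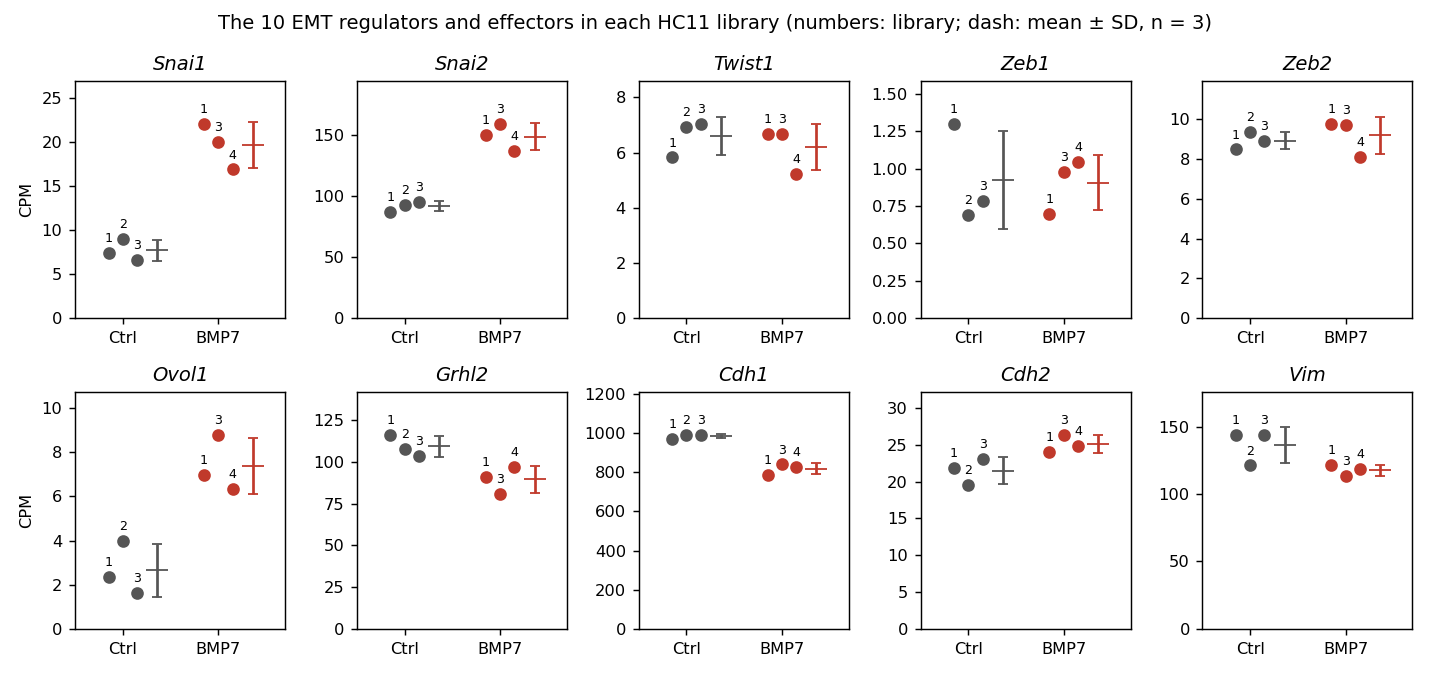
Level of each of the 10 genes in CPM (vertical axes, each starting at 0) in the 3 Ctrl and 3 BMP7 libraries, with 1 numbered point a library and a dash and bar for the mean ± SD. Snai1, Snai2, Ovol1 and Cdh2 have all BMP7 points above all Ctrl points, and Grhl2 and Cdh1 have them below.

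Snai1 and Snai2 encode the zinc finger repressors Snail and Slug. Snai1 (chr2:167380115-167384734, plus strand, mm39) read 7.42, 8.996 and 6.60 CPM in Ctrl libraries 1, 2 and 3 and 22.02, 19.96 and 16.9 CPM in BMP7 libraries 1, 3 and 4. The lowest BMP7 library stood well above the highest Ctrl library. On the log2 scale the change was 1.35 ± 0.13 (SE, n = 3 per group, 95% interval 1.07 to 1.63, adjusted p = 2.32e-06 by edgeR). Snai1 ranked 180 among the 15733 genes tested, ordered from the largest rise. The sequence before its start is shown because it is the 1 entry among the 10 genes, in the RefSeq promoters used here, that holds the E-box CACCTG, the motif that Snail and Zeb proteins bind. It covers the 250 bases before the RefSeq start (chr2:167537945-167538194, plus strand, GRCm38.p6), 5′ to 3′, with the motif in capitals; its first base lies 126 bases before the start.
Snai1: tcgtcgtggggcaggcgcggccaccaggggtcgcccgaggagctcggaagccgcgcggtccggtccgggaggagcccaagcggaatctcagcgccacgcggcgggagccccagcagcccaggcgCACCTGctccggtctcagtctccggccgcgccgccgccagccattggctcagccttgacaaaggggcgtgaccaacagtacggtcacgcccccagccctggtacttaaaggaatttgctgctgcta

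Snai2 (chr16:14523716-14527249, plus strand, mm39) was the more abundant of the pair. It read 87.3, 92.7 and 95.1 CPM in Ctrl and 149.7, 159 and 137 CPM in BMP7 libraries 1, 3 and 4, again without overlap. Its log2 fold change was 0.70 ± 0.07 (SE, n = 3, 95% interval 0.55 to 0.84, adjusted p = 1.75e-06). Neither gene shared exon bases with another gene, and neither had a near-identical copy among the transcripts searched. Both remained called in all 13 alternative fits, with log2 fold changes of 1.25 to 1.52 for Snai1 and 0.65 to 0.75 for Snai2. In BMP7 library 1 alone, without libraries 3 and 4, they were 1.52 and 0.71.

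The remaining EMT factors among the 10 showed no change that passed the test. Twist1, a basic helix-loop-helix factor (chr12:34007670-34009828, plus strand), read 5.83, 6.93 and 7.04 CPM in Ctrl and 6.69, 6.67 and 5.23 CPM in BMP7. Its groups overlapped, and its log2 fold change was -0.09 with a 95% interval of -0.42 to 0.24 (adjusted p = 0.769). Zeb2, a zinc finger and homeodomain repressor (chr2:44873644-45007407, minus strand), read 8.48, 9.34 and 8.90 CPM in Ctrl and 9.76, 9.69 and 8.10 CPM in BMP7. These values overlapped too, with a log2 fold change of 0.04 (95% interval -0.23 to 0.31, adjusted p = 0.874). On the fold scale the interval ran from 0.855 to 1.24.

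Zeb1, its close relative (chr18:5591860-5775467, plus strand), was barely detected. Its deposited counts were 27, 14 and 16 in Ctrl and 10, 22 and 19 in BMP7, which corresponds to 0.688 to 1.30 CPM. The log2 fold change was -0.01 with a 95% interval of -0.80 to 0.79 (adjusted p = 0.992), so at this depth neither a rise nor a fall of Zeb1 by 1.5-fold could be detected or set aside. Zeb1 and Zeb2 are also expressed in macrophages and fibroblasts. Zeb2 read 9.69 and 8.10 CPM in the 2 BMP7 libraries with the lowest macrophage sums and 9.76 CPM in BMP7 library 1. The part of other cells in the Zeb2 level was not tested. By the exon positions, 1.93% of the Zeb1 exon bases and 3.26% of those of Zeb2 also belong to other genes, and 34 other genes held a stretch of at least 100 bases near-identical to Zeb1, the longest of 198 bases.

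Ovol1 and Grhl2, the epithelial factors, moved in opposite directions. Ovol1, a zinc finger repressor (chr19:5599164-5610674, minus strand), read 2.36, 3.98 and 1.61 CPM in Ctrl and 6.97, 8.80 and 6.33 CPM in BMP7. No BMP7 library came down to the highest Ctrl library, although Ctrl itself spread over more than its own lowest value. Its log2 fold change was 1.48 ± 0.25 (SE, n = 3, 95% interval 0.96 to 2.00, adjusted p = 0.000519), the largest of the 10 genes, and it ranked 149 among all rises. It was called in all 13 alternative fits, with log2 fold changes of 1.23 to 1.89. The counts behind it were low, 33 to 81 in Ctrl and 100 to 198 in BMP7. Of the Ovol1 exon bases, 22.1% overlap the genes 1810058N15Rik and Gm31166 on the other strand, which had at most 18 counts in a library. Counting did not use strand and left out fragments of several genes, so fragments in the shared bases were not counted for Ovol1.

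Grhl2, a grainyhead factor that activates Cdh1 and other junction genes (chr15:37233280-37363813, plus strand), read 116, 108 and 104 CPM in Ctrl and 90.9, 80.9 and 97.2 CPM in BMP7. The groups did not touch, but the gap between the lowest Ctrl and the highest BMP7 library was smaller than the spread within either. This made a log2 fold change of -0.29 ± 0.07 (SE, n = 3, 95% interval -0.44 to -0.13, adjusted p = 0.0148). The call was lost without Ctrl library 1 (adjusted p = 0.0853), Ctrl library 2 (0.0557) or BMP7 library 3 (0.0851), and with both BMP7 libraries 3 and 4 left out the log2 fold change was -0.26 (adjusted p = 0.0776). Its antisense neighbour Gm16136 shares 3.01% of the Grhl2 exon bases and gave a log2 fold change of -0.00 (adjusted p = 0.995).

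**Figure D2:**
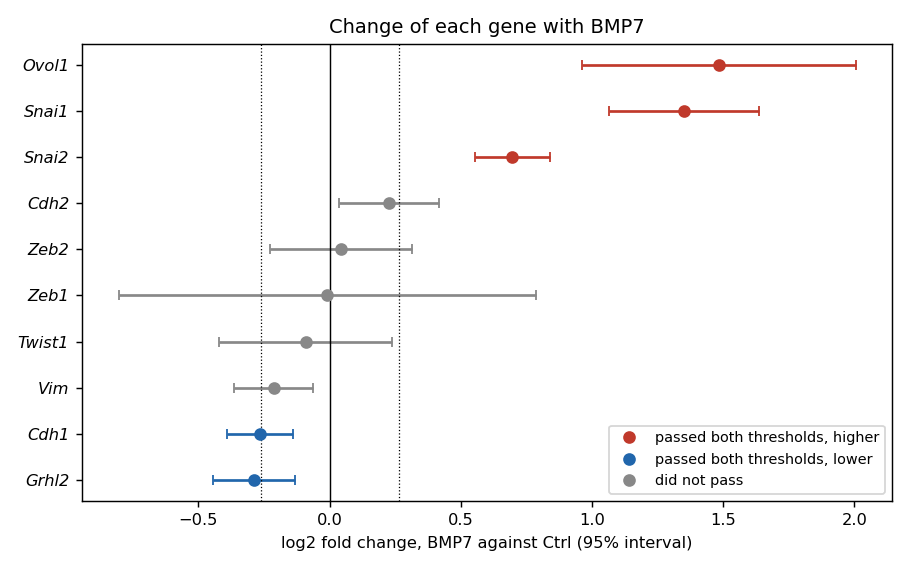
Log2 fold change of each gene, BMP7 against Ctrl (horizontal axis), with 95% intervals from the edgeR fit (n = 3 per group) and dotted lines at a fold change of 1.2. Ovol1, Snai1 and Snai2 lie to the right of the dotted lines with their whole intervals. The points of Cdh1 and Grhl2 lie just past the left line, that of Vim just inside it, and that of Cdh2 just inside the right line.

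Cdh1, the gene of E-cadherin (chr8:107329983-107396878, plus strand), was the most abundant of the 10. It read 970.1, 988 and 992 CPM in Ctrl and 787, 839 and 827 CPM in BMP7. Every BMP7 library lay below every Ctrl library by more than the spread of either group. The log2 fold change was -0.27 ± 0.06 (SE, n = 3, 95% interval -0.39 to -0.14, adjusted p = 0.00616), a fall to 0.832 of Ctrl with a 95% interval of 0.762 to 0.908. This is close to the fold threshold of 1.2, so the call was lost without Ctrl library 2, Ctrl library 3 or BMP7 library 1 (log2 fold changes of -0.26, -0.26 and -0.24) and in DESeq2 (-0.26), although the adjusted p stayed under 0.05 in each. With both BMP7 libraries 3 and 4 left out it was -0.32 (adjusted p = 0.0125).

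Cdh2, the gene of N-cadherin, which mesenchymal cells carry in place of E-cadherin (chr18:16721934-16942303, minus strand), read 21.9, 19.5 and 23.1 CPM in Ctrl and 24.0, 26.4 and 24.8 CPM in BMP7. All BMP7 values were above all Ctrl values. The log2 fold change of 0.23 ± 0.09 (SE, n = 3, 95% interval 0.03 to 0.42) did not pass the test (adjusted p = 0.116) in any of the 13 alternative fits. Within each library, the ratio of Cdh1 to Cdh2 levels per exon length (RPKM) was 78.1, 89.3 and 75.8 in Ctrl and 57.7, 56.1 and 58.7 in BMP7. E-cadherin transcripts thus stayed far in excess in every library, with a ratio that was lower in 3 of 3 BMP7 libraries (two-sided exact permutation p = 0.1, 1 of 5 ratios examined, with a Benjamini-Hochberg adjusted p of 0.167).

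Vim, the intermediate filament protein of mesenchymal cells, which cultured and basal epithelial cells also contain (chr2:13578738-13587637, plus strand), read 144, 121 and 144 CPM in Ctrl and 121, 113 and 118 CPM in BMP7. Ctrl library 2 fell within the BMP7 range, so the groups overlapped. The log2 fold change was -0.21 ± 0.07 (SE, n = 3, 95% interval -0.36 to -0.06) and missed the threshold (adjusted p = 0.0576), with an interval that lay below 0. Without Ctrl library 2 it passed (log2 fold change -0.29, adjusted p = 0.0175). The summed level of 8 fibroblast markers was 113 to 125 CPM in Ctrl and 99.9, 117 and 116 CPM in BMP7 libraries 1, 3 and 4. Vim was not higher in BMP7 libraries 3 and 4 than in library 1, although that sum was. The part of other cells in the Vim level was not tested.

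Per exon length, the 10 genes spanned a wide range. In Ctrl, Cdh1 had 215 ± 2.53 RPKM (mean ± SD, n = 3), followed by Snai2 (45.4 ± 1.97), Vim (28.8 ± 2.78) and Grhl2 (12.7 ± 0.761). Snai1 (4.73 ± 0.751), Twist1 (4.05 ± 0.413) and Cdh2 (2.67 ± 0.225) formed a middle group, in which the libraries of Snai1 and Twist1 overlapped. Ovol1 (0.760 ± 0.347), Zeb2 (0.441 ± 0.0214) and Zeb1 (0.0900 ± 0.0321) were lowest, and Ovol1 and Zeb2 met in Ctrl library 3 (0.463 and 0.441 RPKM). Among the 5 EMT factors, Snai2 thus had the highest level in every library. In BMP7, 1 pair of neighbours changed places, since Snai1 (12.1 ± 1.60 RPKM) passed Grhl2 (10.4 ± 0.953), although their libraries overlapped. Ovol1 reached 2.11 ± 0.367 RPKM, which separated it from Zeb2 (0.454 ± 0.0465). Levels as TPM, a measure scaled to transcript length and library, gave the same order in both groups.

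**Figure D3:**
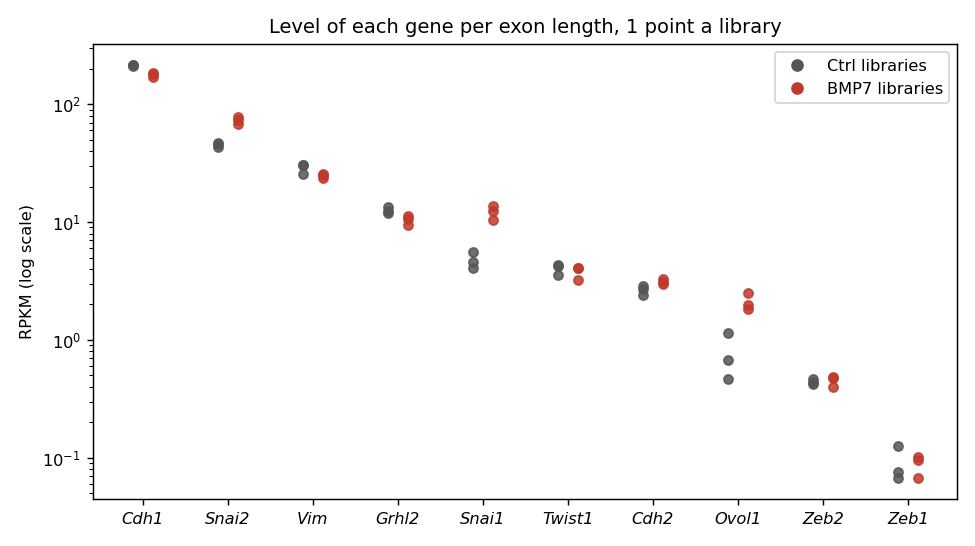
Level per exon length of the 10 genes (RPKM, log scale, vertical axis), ordered by the Ctrl mean, with 1 point a library. Cdh1 and Snai2 lead in both groups, Zeb1 lies near 0.1 RPKM, and Snai1, Snai2 and Ovol1 have their BMP7 points above their Ctrl points.

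Ratios within a library showed how the pairs shifted. The ratio of Snai2 to Snai1 (RPKM) was 9.44, 8.26 and 11.5 in Ctrl and 5.45, 6.40 and 6.51 in BMP7, since Snai1 rose by more. The ratio of Grhl2 to Ovol1 was 19.98, 10.97 and 25.99 in Ctrl and 5.28, 3.72 and 6.21 in BMP7. Both ratios were lower in 3 of 3 BMP7 libraries (two-sided exact permutation p = 0.1 each, adjusted p = 0.167 over 5 ratios). The ratio of Cdh1 to Vim was 6.99, 8.45 and 7.14 in Ctrl and 6.73, 7.68 and 7.24 in BMP7 and overlapped (p = 0.7, exact permutation test). The ratio of Zeb2 to Zeb1 overlapped as well (p = 0.9, exact permutation test).

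Other genes of the EMT programme were taken as 7 lists, which are counted and not tested as sets. Over all genes tested, 5.99% were called higher and 5.38% lower. Among other EMT transcription factors, 11 of 17 were tested, and 6 rose and 0 fell, with a median log2 fold change of 0.34 against -0.01 over all genes tested. DESeq2, which called 5.88% of all genes higher and 4.7% lower, gave 0 falls here, as did an unadjusted p under 0.05 in edgeR, which 13.1% of all genes passed in each direction. The largest rise was that of Foxq1, a forkhead factor, which read 3.08, 1.97 and 1.71 CPM in Ctrl and 17.9, 18.8 and 14.8 CPM in BMP7, a log2 fold change of 2.92 ± 0.18 (SE, adjusted p = 9.35e-09). Zfp703, a zinc finger corepressor, rose by 0.84 on the log2 scale, and Tbx3, a T-box transcriptional repressor, by 0.69. The list without BMP7 libraries 3 and 4 also had 6 rises. Snai1, Snai2 and these factors rose beside Twist1, Zeb1 and Zeb2, whose values overlapped.

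The list of epithelial transcription factors and splicing factors was divided. Of 15 genes 13 were tested, and 4 rose (5.99% of all genes tested) and 2 fell (5.38%). The median log2 fold change was -0.03. Grhl1 and Grhl3, relatives of Grhl2, rose while Grhl2 fell. Grhl1 read 32.4, 32.0 and 34.4 CPM in Ctrl and 71.4, 78.3 and 66.5 CPM in BMP7 (log2 fold change 1.13 ± 0.08, adjusted p = 1.92e-08). Grhl3 read 2.99, 3.24 and 3.03 CPM in Ctrl and 3.97, 5.91 and 6.50 CPM in BMP7 libraries 1, 3 and 4 (0.84 ± 0.20, adjusted p = 0.00915). It was lower in BMP7 library 1 than in the libraries with the high adipocyte sums, and with those 2 left out its log2 fold change of 0.36 did not pass (adjusted p = 0.463). These directions were the same under each other scaling. Gata3, a luminal zinc finger factor, rose by 1.06 on the log2 scale. Tfcp2l1, a relative of the grainyhead factors, fell by 0.82, and Esrp2, a splicing factor of epithelial isoforms, fell by 0.35. Ovol2, the relative of Ovol1, gave 0.07 (adjusted p = 0.797).

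Among cadherins and catenins, 15 of 23 genes were tested, and 2 rose (5.99% of all genes tested) and 1 fell (5.38%). The median log2 fold change was -0.03. Ctnnd2 (delta-catenin) rose by 0.69 on the log2 scale and Ctnnd1 (p120-catenin), which stabilises E-cadherin at the membrane, by 0.39, with overlapping groups for Ctnnd1. Without BMP7 library 3 neither passed, Ctnnd1 did not pass without Ctrl library 1 or 2 either, and with BMP7 libraries 3 and 4 left out Ctnnd2 did not (log2 fold change 0.48, adjusted p = 0.204). Ctnnal1, an alpha-catenin-like gene, fell by 0.52. Of the catenins that anchor E-cadherin, Ctnnb1 gave a log2 fold change of -0.04 (adjusted p = 0.748) and Ctnna1 one of 0.19, under the fold threshold (adjusted p = 0.0386).

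Epithelial effector genes, which encode junction, polarity and adhesion proteins, fell in part, as Cdh1 did. Of 25 genes 23 were tested, and 10 fell (5.38% of all genes tested) and 0 rose (5.99%). The median log2 fold change was -0.31. DESeq2 also gave 10 falls and 0 rises, and 0 genes rose at an unadjusted p under 0.05. The largest falls were those of Marveld3, a tight junction gene, by 0.90 on the log2 scale, of Crb3, a polarity gene, by 0.86, and of Krt18, a luminal keratin, by 0.67. With BMP7 libraries 3 and 4 left out, Crb3 did not pass (log2 fold change -0.62, adjusted p = 0.0765). Marveld3 did not pass without Ctrl library 3, and its log2 fold change reached -1.80 with those BMP7 libraries left out. Epcam, an adhesion gene named after its values were seen, read 647, 631 and 640.3 CPM in Ctrl and 499, 460.3 and 479 CPM in BMP7. Its groups lay well apart, with a log2 fold change of -0.42 ± 0.06 (adjusted p = 0.00012). The falls were uneven, since Krt8 (log2 fold change 0.09, adjusted p = 0.479) and Dsp (0.11, adjusted p = 0.252) lay on the other side of 0. With BMP7 libraries 3 and 4 left out, 7 genes of the list fell and 0 rose. The summed level of 5 luminal markers, mostly Cdh1 and Epcam, was 1726 to 1746 CPM in Ctrl and 1386 to 1409 CPM in BMP7. That of 5 basal markers, mostly Krt14 and Krt5, was 6324 to 6462 CPM in Ctrl and 7104 to 8445 CPM in BMP7. Of these 5, Krt14 and Trp63 were called higher, with log2 fold changes of 0.43 and 0.64. Krt5 did not rise (-0.03, adjusted p = 0.807). Acta2 (-1.23, adjusted p = 0.12) and Myh11 (1.52, adjusted p = 0.0513) had few counts and did not pass.

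**Figure D4:**
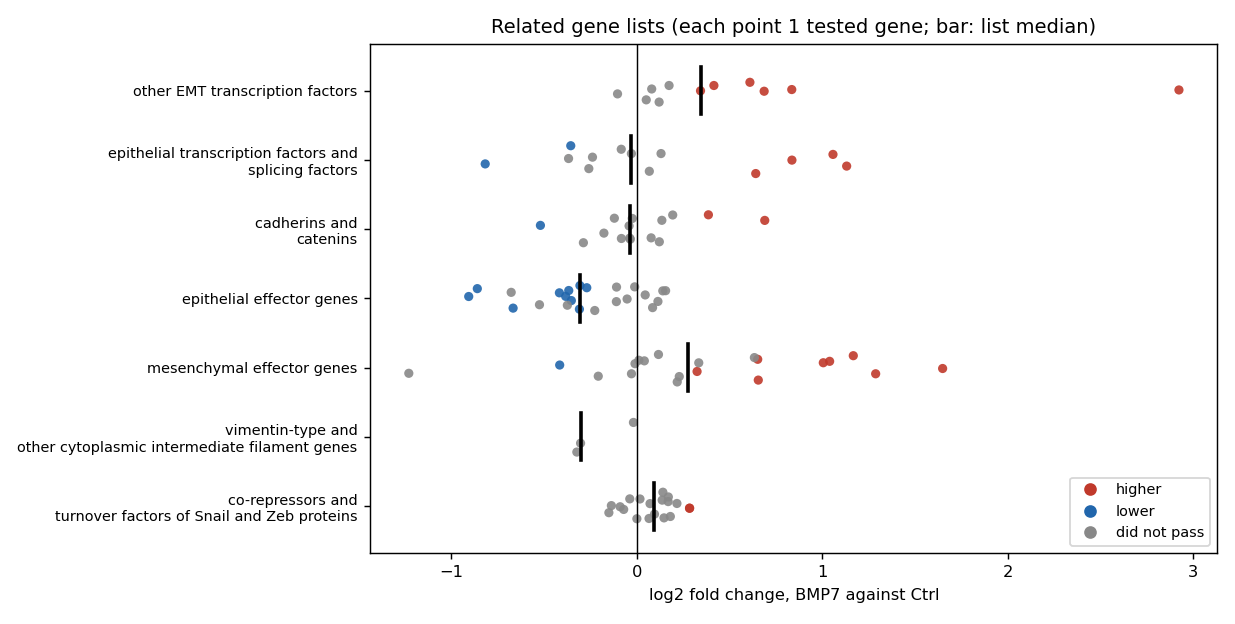
Log2 fold change, BMP7 against Ctrl (horizontal axis), of the tested genes of 7 related lists, with 1 point a gene, coloured by whether it passed the test, and a bar at the list's median. Other EMT factors and mesenchymal effectors lie mostly right of 0 and epithelial effectors mostly left, with called points on both sides in the epithelial factors, the cadherins and catenins and the mesenchymal effectors.

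Mesenchymal effector genes, mostly of the extracellular matrix, rose in part, while Vim did not pass the test. Of 25 genes 20 were tested, and 8 rose (5.99% of all genes tested) and 1 fell (5.38%). The median log2 fold change was 0.28. Col1a2, a chain of type I collagen, read 1.06, 1.62 and 1.61 CPM in Ctrl and 3.76, 5.78 and 3.80 CPM in BMP7 (log2 fold change 1.65 ± 0.26, adjusted p = 0.000269). S100a4 rose by 1.17, at 0.636 to 0.819 CPM in Ctrl and 1.32 to 2.23 CPM in BMP7, and lost its call in 6 of 13 alternative fits. The gene that fell, Col1a1, encodes the other chain of type I collagen and read 65.1, 69.5 and 78.8 CPM in Ctrl and 48.9, 58.1 and 52.6 CPM in BMP7 (-0.41 ± 0.08, adjusted p = 0.00243). Fn1 (fibronectin) gave -0.03 on the log2 scale (adjusted p = 0.846). Without Ctrl library 2, 5 genes of the list rose, and with BMP7 libraries 3 and 4 left out, 7 rose. Among the fibroblast markers, Dcn was higher in BMP7 libraries 3 and 4 (4.45 and 4.90 CPM) than in library 1 (1.74 CPM) and in Ctrl (0.737 to 1.73 CPM), as the adipocyte genes were. The part of other cells in the rise of the collagens was not tested.

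Of the other intermediate filament genes, 3 of 6 were tested and 0 rose and 0 fell by edgeR and by DESeq2. At an unadjusted p under 0.05, 1 was lower. Nes (nestin) read 10.6, 11.1 and 10.6 CPM in Ctrl and 8.57, 9.42 and 8.10 CPM in BMP7 (log2 fold change -0.30, adjusted p = 0.111), the same direction as Vim and without overlap. All 19 genes listed as co-repressors and turnover factors of the Snail and Zeb proteins were tested. Of these, 2 rose (5.99% of all genes tested) and 0 fell (5.38%), with a median log2 fold change of 0.10. Hdac2, a histone deacetylase that Snail recruits, and Fbxl5, a ubiquitin ligase subunit that targets Snail, each rose by 0.29 on the log2 scale. Fbxl5 did not pass with BMP7 libraries 3 and 4 left out (0.22, adjusted p = 0.0873), nor Hdac2 without BMP7 library 3. At an unadjusted p under 0.05, 8 genes of the list were higher (13.1% of all genes tested) and 0 lower, and DESeq2 called 0 lower. Protein levels were not measured here.

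The E-box CACCTG, which reads CAGGTG on the other strand, was counted in the RefSeq promoters on GRCm38.p6, from 250 bases before to 50 bases after each start. It stood in 20.2% of 32851 promoters. Of the 10 genes, 4 matched an entry by symbol (Snai1, Twist1, Zeb2 and Vim), and Snai1 alone held the motif, while GGCGCC, a motif of the BMP-activated Smad proteins found in 11.9% of all promoters and sharing at most 1 base with an E-box match, stood in none of them. The epithelial effectors include genes known as targets of E-box repressors. Of this list, 16 of 17 genes with an entry held CACCTG, including 6 of the 7 with an entry that fell. Counted per promoter, as the share of all promoters was, it stood in 19 of 21 (90.5%). The list's genes that did not fall held it as well, so the motif did not separate them. Among mesenchymal effectors it stood in 1 of 15 genes (1 of 17 promoters, 5.88%). Epcam, Crb3 and Rab25 are shown as 3 genes that fell with Cdh1, chosen after their values were seen. All 3 are among the 6 that held the motif. Rab25 is a trafficking gene whose log2 fold change was -0.35. Rab25 did not pass with BMP7 libraries 3 and 4 left out (-0.26, adjusted p = 0.0904) or under glmTreat. Each sequence covers the 250 bases before the start, 5′ to 3′ on the gene's strand, at chr17:87635729-87635978 (plus), chr17:57061951-57062200 (plus) and chr3:88548280-88548529 (minus), with CACCTG and CAGGTG in capitals.
Epcam: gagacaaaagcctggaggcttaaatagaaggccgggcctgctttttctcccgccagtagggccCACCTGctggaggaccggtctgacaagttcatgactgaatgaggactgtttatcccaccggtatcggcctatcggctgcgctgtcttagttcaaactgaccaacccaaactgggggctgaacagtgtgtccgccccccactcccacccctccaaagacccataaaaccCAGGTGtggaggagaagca
Crb3: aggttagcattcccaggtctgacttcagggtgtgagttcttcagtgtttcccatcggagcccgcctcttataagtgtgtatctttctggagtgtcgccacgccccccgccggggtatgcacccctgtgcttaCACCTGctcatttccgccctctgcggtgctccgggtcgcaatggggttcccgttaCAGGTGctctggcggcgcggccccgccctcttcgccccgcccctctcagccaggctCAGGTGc
Rab25: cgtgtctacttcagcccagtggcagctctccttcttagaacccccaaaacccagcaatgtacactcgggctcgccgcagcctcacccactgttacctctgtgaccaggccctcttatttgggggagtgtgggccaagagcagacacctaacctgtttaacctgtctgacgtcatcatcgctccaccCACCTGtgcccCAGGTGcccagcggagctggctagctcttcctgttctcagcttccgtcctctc
Their motifs begin 187 and 19 bases before the start in Epcam, 118, 63 and 7 bases before it in Crb3, and 64 and 53 bases before it in Rab25. A match is a run of letters and does not show binding in these cells.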

How the data were processed

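RNA of HC11 cells with or without BMP7 (3 libraries each) was sequenced as poly(A) libraries. The authors aligned read pairs with subjunc (Subread 2.0.3 per the labels) and counted fragments over the exons of each gene name with featureCounts 2.0.1. The deposited values are raw counts without normalization, and a summed exon length per gene was deposited with them. The methods name mm10 for alignment, while the count table's header gives an annotation called mm39. Fragments of several places or genes were left out, which lowers genes with copies or overlaps, and strand was not used. Gene coordinates are those of the deposited counts.

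Counts were analysed in R 4.3.3 with edgeR 4.0.16 (filterByExpr, TMM, quasi-likelihood test of BMP7 against Ctrl over all 6 libraries, Benjamini-Hochberg over 15733 genes). A call needed a fold change over 1.2 at an adjusted p under 0.05. The SE was taken as log2 fold change over the root of F. CPM and RPKM use TMM-scaled library sizes. Permutation tests are exact, two-sided, on log2 CPM (prior count 2) or on log2 ratios. Counting error dominates for genes with a few counts. The columns were grouped by condition, and their numbers (1, 2, 3 and 1, 3, 4) name libraries only. Alternatives were DESeq2 1.42.0, RLE and upper-quartile scaling, no filter, a filter of 10 counts in every library, glmTreat, other fold thresholds and leaving out libraries. edgeR was tested on simulated data before use. Overlaps used GenomicRanges 1.54.1, and copies were searched with BLAST 2.17.0 among GENCODE transcripts (at least 100 bases at 95% identity).

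The members and lists were chosen with earlier results of these data known. The genes named are the 10 members, Id1, and marker genes of epithelial and other cells. From each list, up to 3 largest rises and 3 largest falls among called genes averaging at least 1 CPM were named too. A gene that this rule names is not reported here. Epcam, Rab25, Krt8, Dsp, Fn1, Nes, Ovol2, Ctnnb1 and Ctnna1 were added to these once their values were known.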

Additional observations from a re-analysis of the deposited data

How the results depend on the processing

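Of 130 refits of single genes among the 10, 113 kept the direction and the side of the threshold, 11 lost a call, 1 gained one and 5 changed sign. Snai1, Snai2 and Ovol1 were called in 13 of 13, Grhl2 in 8 and Cdh1 in 7. The sign changes were in genes near 0. Twist1 read 0.016 without BMP7 replicate 4 and 0.022 with both BMP7 replicates 3 and 4 left out (-0.17 to 0.016 when 1 library was left out), Zeb1 0.32 without Ctrl replicate 1 and 0.13 without BMP7 replicate 1 (-0.18 to 0.32), and Zeb2 -0.00085 without BMP7 replicate 3 (-0.00085 to 0.13). Leaving out 1 library gave -0.35 to -0.21 for Grhl2, -0.28 to -0.24 for Cdh1 and -0.29 to -0.17 for Vim.

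Grhl2 was not called by glmTreat, which tests against a fold of 1.2 (-0.29), or with both BMP7 libraries left out (-0.26), and Cdh1 was not called by DESeq2 (-0.26), RLE scaling (-0.26) or glmTreat (-0.27). The number of the 10 genes lower was 1 by DESeq2, RLE scaling and with both left out, 0 by glmTreat and at a fold of 1.5, and 1 to 2 with 1 library left out. Over all genes, glmTreat gave 494 higher and 254 lower, a fold of 1.5 gave 476 and 304, and leaving out 1 library gave 723 to 1081 higher and 563 to 902 lower.

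The lists changed most under glmTreat, which also demands more. It gave 1 lower epithelial factor, 1 higher cadherin or catenin, 3 lower epithelial effectors, 5 higher and 0 lower mesenchymal effectors, and 0 higher co-repressors. A fold of 1.5 gave 1 lower epithelial factor, 1 higher and 0 lower cadherins and catenins, 3 lower epithelial effectors, 0 lower mesenchymal effectors and 0 higher co-repressors. Cadherins and catenins lower numbered 2 by DESeq2, upper-quartile scaling and without a filter, and 3 with both BMP7 libraries left out, where 1 was higher, as was 1 co-repressor. Leaving out 1 library gave 0 to 2 higher and 1 to 2 lower cadherins and catenins, 5 to 7 higher and 1 to 2 lower mesenchymal effectors, 8 to 10 lower epithelial effectors, 2 to 3 lower epithelial factors and 1 to 3 higher co-repressors. Beyond the construction of glmTreat, of the fold threshold and of fits with fewer libraries, the cause was not tested. With both left out, the lone BMP7 library was assumed to vary like Ctrl. Other scalings moved the median of all genes by under 0.1 on the log2 scale.

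No paired analysis was possible because the BMP7 columns carry the numbers 1, 3 and 4 while the labels number the samples otherwise, so columns could not be tied to the replicate numbers of the labels. The number of counts limits Zeb1 and Ovol1 most.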
